A study of Mus musculus with 12 samples.

Results

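The 10 genes described here are the inflammatory cytokines Tnf, Il1b and Ccl2, the IL-1 receptor antagonist Il1rn and the IL-1 receptor Il1r1, the inhibitors and regulators of NF-kB Nfkbia, Nfkbiz, Tnfaip3 and Bcl3, and the adhesion molecule Icam1. They were found as the array probes whose RefSeq identifier belongs to these genes, which gave 15 probes, out of 31168 probes and 17002 named genes measured. Liver RNA came from male wildtype C57BL/6 mice, 6 weeks old, at 0, 1.5, 12 and 24 h after partial hepatectomy, the surgical removal of 2/3 of the liver. Each time point held 3 arrays, labelled as 3 mice, and all 4 groups share strain, sex and age. The labels give each group as a time after the operation, and whether the 0 h mice were operated on and sampled at once is not given in the sources used here, so a fold change against 0 h is against livers of that label. The groups used here hold no sham-operated mice, so the loss of tissue, the surgery and anaesthesia and the time of day cannot be told apart. The samples are pieces of whole liver, so fewer cells of a type and less RNA per cell cannot be told apart either.

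NF-kB is a family of dimeric transcription factors built from Rel proteins and held in the cytoplasm by I kappa B proteins. Tumour necrosis factor, interleukin-1 and bacterial products act through receptors and adaptors on the I kappa B kinase, the inhibitor is degraded, and the dimer enters the nucleus. Its targets include the cytokines that activate it and the inhibitors that end the response. In the liver, resident macrophages (Kupffer cells) are a known source of these cytokines, and the pathway is known for its part in the priming of hepatocytes after partial hepatectomy.

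The array was a 1-colour Agilent design that carries messenger RNAs and long noncoding RNAs. The array of 24 h replicate 2 stood apart: its 75th percentile signal was 6210, where the other arrays had 443 to 599, and it also had 540 spots marked as outliers against 19 to 40 elsewhere. That array correlated with the other 11 at r = 0.859 to 0.917 over all probes, and the lowest correlation among those 11 was 0.927. The arrays fell into 4 scans by the scan time in their headers. Scan 1 held the 3 arrays of 0 h and 1.5 h replicate 1, scan 2 held 1.5 h replicates 2 and 3 with 12 h replicates 1 and 2, scan 3 held 12 h replicate 3 with 24 h replicates 1 and 3, and scan 4 held 24 h replicate 2 alone. On the arrays of scan 2, 82 to 85.4% of spots were well above background, and on those of the other scans 62.8 to 72.4%. The part of this difference in the values of dim genes was not tested. All 8 hepatocyte markers were measured, and their summed signal ran from 148600 to 156800% of the array's 75th percentile at 0 h and from 63025 to 130110% at 24 h, lowest on 24 h replicate 2. On that array 1 of the 8 markers was not counted as well above background. A marker whose spots were all marked as outliers is counted so and adds nothing to a sum. The part of this in the low sum was not tested.

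The sequences at the start sites are shown because most of the 10 genes moved together and several are known targets of NF-kB. RefSeq promoter windows (GRCm38.p6, from 250 bases before a transcription start to 50 after it) were found for 8 of the 10 genes, in 12 windows. The 10-base kappa B consensus (GGGRNNYYCC, with R for A or G, Y for C or T and N for any base) was searched on both strands. It occurred in the windows of 4 genes, and the 4 windows that hold it are printed 5′ to 3′ on the gene's strand with each match in capitals. The matches of Nfkbia and Il1r1 and the one of Tnfaip3 nearer the start lie on the opposite strand only. The others read on both strands. Tnfaip3 (chr10:19015361-19015660, minus strand) has a match that begins 125 bases and one that begins 12 bases before the start, Nfkbia (chr12:55492598-55492897, minus strand) has one 29 bases before the start, Bcl3 (chr7:19822706-19823005, minus strand) has one 2 bases after it, and the more downstream of the annotated starts of Il1r1 (chr1:40266336-40266635, plus strand) has one 232 bases before it.
Nfkbia: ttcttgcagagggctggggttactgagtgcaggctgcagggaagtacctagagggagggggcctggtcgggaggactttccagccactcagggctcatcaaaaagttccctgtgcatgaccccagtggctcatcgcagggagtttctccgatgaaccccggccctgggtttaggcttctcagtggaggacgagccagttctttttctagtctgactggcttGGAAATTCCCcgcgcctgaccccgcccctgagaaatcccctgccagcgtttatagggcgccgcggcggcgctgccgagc
Tnfaip3: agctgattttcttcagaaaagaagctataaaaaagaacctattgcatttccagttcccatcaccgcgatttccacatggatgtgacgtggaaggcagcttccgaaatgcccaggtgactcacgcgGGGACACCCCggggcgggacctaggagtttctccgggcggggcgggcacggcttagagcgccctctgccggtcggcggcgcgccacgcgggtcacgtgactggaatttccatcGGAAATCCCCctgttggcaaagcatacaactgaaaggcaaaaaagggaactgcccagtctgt
Bcl3: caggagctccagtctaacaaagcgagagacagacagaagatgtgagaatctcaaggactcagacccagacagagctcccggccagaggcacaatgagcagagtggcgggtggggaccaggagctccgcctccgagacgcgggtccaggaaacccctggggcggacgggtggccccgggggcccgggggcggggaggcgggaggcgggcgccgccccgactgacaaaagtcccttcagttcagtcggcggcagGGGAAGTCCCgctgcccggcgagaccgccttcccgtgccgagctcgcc
Il1r1: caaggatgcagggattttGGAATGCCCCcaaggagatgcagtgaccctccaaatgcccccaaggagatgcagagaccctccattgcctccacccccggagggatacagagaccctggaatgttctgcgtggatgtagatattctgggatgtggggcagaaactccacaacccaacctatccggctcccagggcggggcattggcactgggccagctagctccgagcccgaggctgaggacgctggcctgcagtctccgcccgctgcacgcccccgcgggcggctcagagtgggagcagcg
A match was present in 8.46% of all 32851 windows of this length and in 9.55% of the 27025 genes that have one. These matches are letters in a window, and no binding was measured here. Only exact matches were counted. A window without a match can still hold a sequence close to the consensus, such as tggaaattcc in the window of Icam1. The 4 genes with a match differ in their course, as described for each: Tnfaip3, Bcl3 and Il1r1 rose and Nfkbia did not pass the test at any time. Tnf, Il1b, Il1rn and Icam1 had no match in any window, and Nfkbiz and Ccl2 had no window. Of these genes all except Il1b rose at 12 h.

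At 1.5 h none of the 10 genes passed the threshold (limma, adjusted p under 0.05), and 4 had an unadjusted p under 0.05: Nfkbiz, Il1b, Tnfaip3 and Il1r1. Over all probes 0.0225% passed, 7 probes in number. The fold changes were positive for 9 of 10 genes, and for 6 of them (Tnf, Il1b, Il1rn, Il1r1, Nfkbiz and Tnfaip3) every 1.5 h array lay above every 0 h array, which held for 16.4% of all probes. The median log2 fold change of the 10 genes was 0.90, against 0.16 over all probes and 0.07 over protein-coding probes. Without 24 h replicate 2, whose spread enters every comparison through the shared model, Nfkbiz passed (adjusted p = 0.0361). With arrays weighted by their quality those 6 genes passed, along with 38% of all probes.

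At 12 h against 0 h 8 of the 10 genes rose, all except Il1b and Nfkbia. Among all probes 15.3% passed in either direction and 6.93% rose. In the 8 genes every 12 h array lay above every 0 h array, as in 40.3% of all probes. The median log2 fold change was 2.00, against 0.41 over all probes and 0.24 over protein-coding probes. Without 24 h replicate 2, 8 genes passed, along with 49% of all probes. No scan held arrays of both groups. With scan as a block 5 genes passed (Il1rn, Il1r1, Nfkbiz, Tnfaip3 and Ccl2), beside 4.17% of all probes. With a normexp background correction 4 passed (Il1rn, Il1r1, Nfkbiz and Tnfaip3), beside 2.15%.

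At 24 h against 0 h 9 of the 10 genes rose, all except Nfkbia. Among all probes 5.45% passed in either direction and 2.83% rose, and in 12.8% every 24 h array lay above every 0 h array, as it did in the 9 genes. The median log2 fold change was 1.73, against -0.15 over all probes and -0.06 over protein-coding probes. The comparisons at 1.5, 12 and 24 h share the 0 h arrays, so their values stand side by side and are not independent. The calls at 24 h changed with the arrays used: 9 genes (and 17% of all probes) passed without 24 h replicate 2 and 1 gene (1.33%) without 0 h replicate 1. Without 0 h replicate 2, 3 genes (1.64%) passed, without 0 h replicate 3, 2 (2.49%), and without 24 h replicate 1, 5 (5.36%). With scan as a block, where 24 h replicate 2 drops out because it is alone in its scan, none passed (0.266% of all probes). With normexp Tnfaip3 alone did (0.597%).

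**Figure D1:**
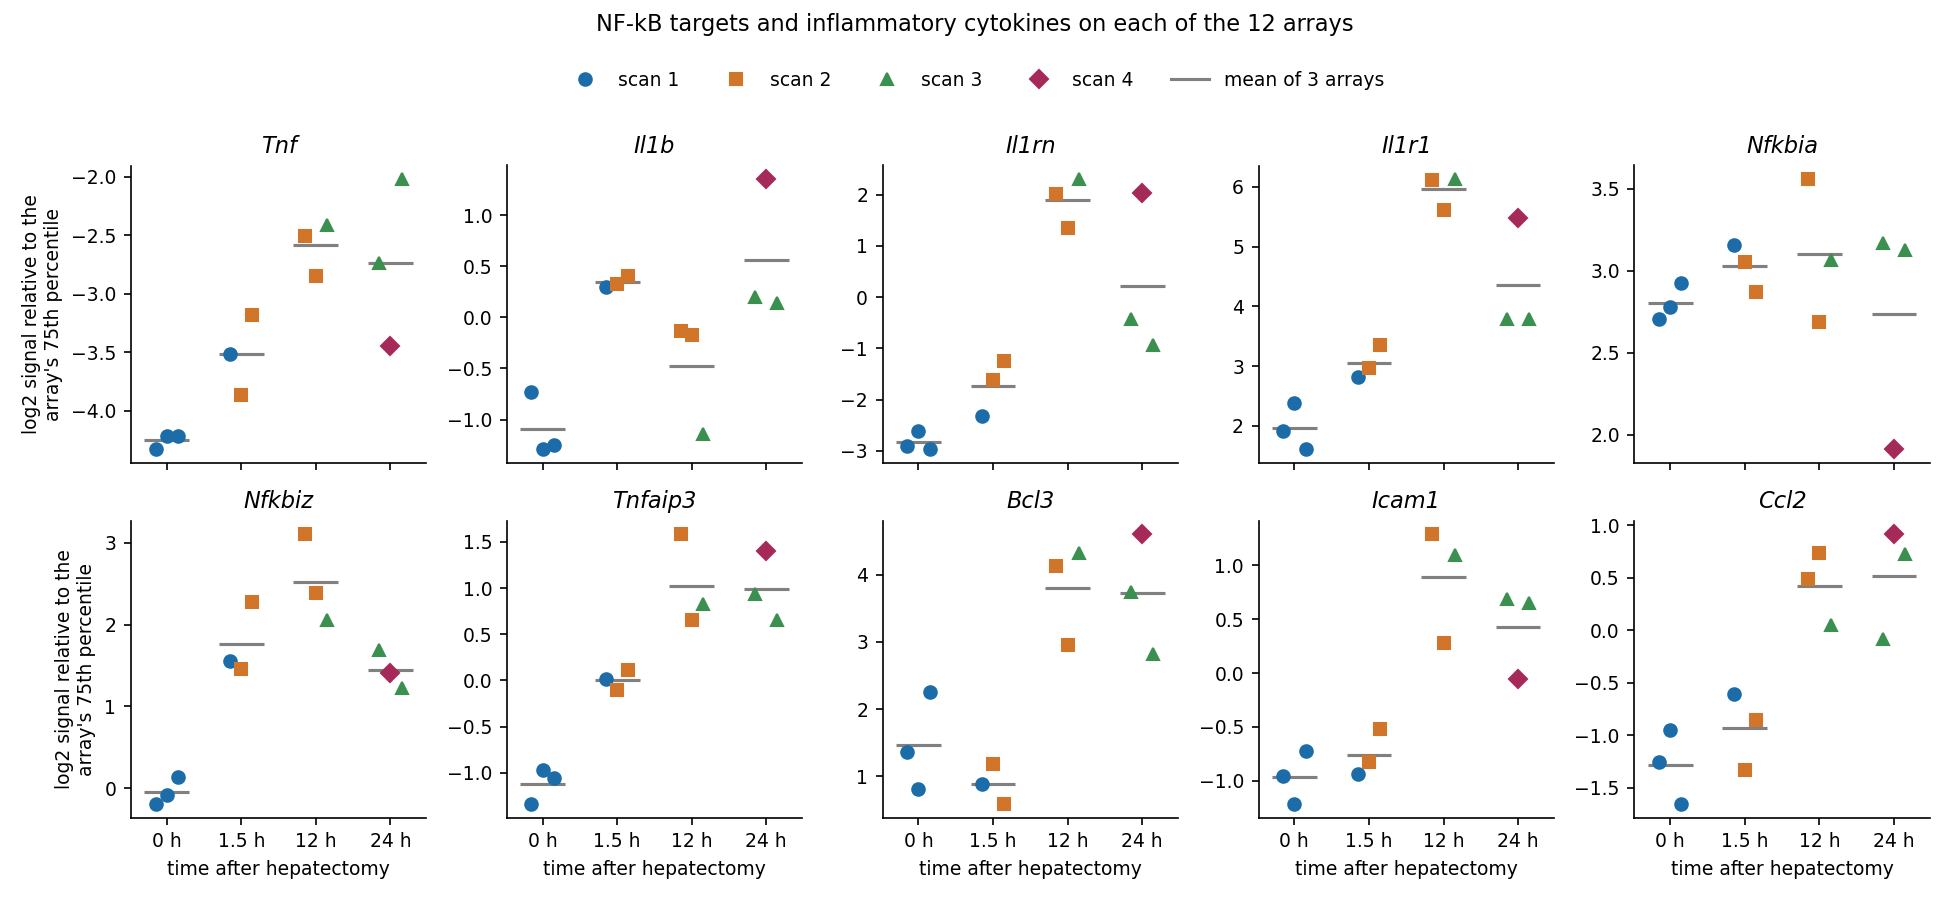
Signal of each of the 10 genes on each of the 12 arrays, as log2 relative to the array's 75th percentile, by hours after partial hepatectomy. Symbols and colours mark the scan and grey lines the mean of 3 arrays. Il1rn and Il1r1 have their highest means at 12 h, Il1b is lower at 12 h than at 1.5 h on every array, and the scan 4 array (24 h replicate 2) lies above the other 24 h arrays for Il1b, Il1rn, Il1r1, Tnfaip3, Bcl3 and Ccl2 and below them for Tnf, Nfkbia and Icam1.

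Tnf encodes tumour necrosis factor, a main activator of NF-kB and itself a target (NM_013693). Its signal was 4.98, 5.37 and 5.39% of the array's 75th percentile at 0 h, and 8.74, 6.88 and 11% at 1.5 h. It was 17.6, 13.9 and 18.8% at 12 h, and 15, 9.15 and 24.6% at 24 h. Every later array was above every 0 h array, and the 24 h arrays spanned those of 12 h. Tnf rose 3.17-fold at 12 h (log2 1.67 ± 0.35 standard error, adjusted p = 0.00951) and 2.86-fold at 24 h (1.52 ± 0.35, adjusted p = 0.0316). At 1.5 h the log2 difference was 0.73 ± 0.35 (adjusted p = 0.775). These are dim spots, well above background on 11 of 12 arrays. With a normexp background correction the log2 differences were -0.08 at 1.5 h, 0.84 at 12 h (adjusted p = 0.728) and -0.03 at 24 h, so the level of Tnf near background depends on how the background is removed. With scan as a block the 12 h difference was 1.58 (adjusted p = 0.0984).

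Il1b encodes interleukin-1 beta, made by activated macrophages, monocytes and neutrophils (NM_008361). It did not pass at 12 h and rose at 24 h. It stood at 60.1, 40.9 and 42.0% of the 75th percentile at 0 h and at 123, 126 and 132% at 1.5 h. It was lower at 12 h, at 91.3, 89.0 and 45.3%, and reached 115, 256 and 110.5% at 24 h. The 1.5 h arrays lay close together and above all 0 h and all 12 h arrays, and the 12 h arrays overlapped with 0 h. Il1b was 2.70-fold higher at 1.5 h (log2 1.44 ± 0.38, adjusted p = 0.517), 1.53-fold higher at 12 h (0.61 ± 0.38, adjusted p = 0.278) and rose 3.16-fold at 24 h (1.66 ± 0.38, adjusted p = 0.0324). Between 1.5 h and 12 h the log2 difference was -0.82 ± 0.38 (adjusted p = 0.273), and between 12 h and 24 h it was 1.05 ± 0.38 (adjusted p = 0.0786), so neither step passed. In scan 2, with 2 arrays of each time, the 12 h arrays were lower than the 1.5 h arrays by a log2 difference of -0.52. Without 24 h replicate 2, the highest 24 h array, the rise at 24 h was 1.26 (adjusted p = 0.0213).

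Ccl2 encodes the chemokine MCP-1, which draws monocytes through the receptor CCR2 (NM_011333). Its signal was 41.8, 51.8 and 31.6% of the 75th percentile at 0 h and 65.6, 39.8 and 55.4% at 1.5 h, and these groups overlapped. At 12 h it was 141, 166 and 104%, and at 24 h 94.6, 189 and 166%, all above every array of 0 h and 1.5 h. Ccl2 rose 3.28-fold at 12 h (log2 1.72 ± 0.34, adjusted p = 0.00779) and 3.51-fold at 24 h (1.81 ± 0.34, adjusted p = 0.0145). The 12 h level was also above that of 1.5 h, by 2.56-fold (1.36 ± 0.34, adjusted p = 0.0344), and by a log2 difference of 1.70 within scan 2. That call was kept under 14 of 23 alternative settings (adjusted p = 0.186 with a normexp background correction). The call at 12 h against 0 h was kept under 22 (0.0951 with normexp) and that at 24 h under 18 (0.17 with scan as a block). At 1.5 h against 0 h the log2 difference was 0.36 ± 0.34 (adjusted p = 0.806), with an interval from -0.40 to 1.12.

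Il1rn encodes the IL-1 receptor antagonist, which occupies the receptor without signalling, and Il1r1 the receptor that binds interleukin-1. Both had their highest levels at 12 h, and there they had the 2 largest fold changes of the 10 genes, Il1rn the larger (with normexp Il1r1 the larger, at a log2 change of 3.61 against 3.15). Il1rn (read from NM_001039701) was at 13.4, 16.3 and 12.8% of the 75th percentile at 0 h and at 20.1, 32.7 and 42.0% at 1.5 h. It was at 406, 256 and 495% at 12 h and at 74.8, 408 and 52.4% at 24 h. The groups of 0, 1.5 and 12 h did not overlap, and at 24 h replicate 2 was as high as a 12 h array while the other arrays were far lower. Il1rn rose 26.4-fold at 12 h (log2 4.72 ± 0.64, adjusted p = 0.00109) and 8.29-fold at 24 h (3.05 ± 0.64, adjusted p = 0.0223). The 24 h log2 change was 2.15 without 24 h replicate 2 (adjusted p = 0.00488) and 0.65 with scan as a block (adjusted p = 0.735). It rose 12.3-fold between 1.5 h and 12 h (3.62 ± 0.64, adjusted p = 0.00601), with a log2 difference of 3.12 within scan 2. At 1.5 h the brightest probe gave a log2 difference of 1.1 ± 0.64 (adjusted p = 0.78) and the other 2 probes gave 0.45 and 0.40.

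Il1r1 (read from NM_001123382) was at 378, 521 and 306% of the 75th percentile at 0 h and at 705, 781 and 1024% at 1.5 h. It was at 6946, 4898 and 6998% at 12 h and at 1380.4, 4469 and 1384% at 24 h. Every array of a later time was above every 0 h array, and the 12 h arrays were above all others. Il1r1 rose 15.8-fold at 12 h (log2 3.98 ± 0.44, adjusted p = 0.000342) and 5.21-fold at 24 h (2.38 ± 0.44, adjusted p = 0.0128). With scan as a block the 24 h change was 1.21 (adjusted p = 0.464). It rose 7.5-fold between 1.5 h and 12 h (2.91 ± 0.44, adjusted p = 0.00274). Il1r1 then fell 3.03-fold between 12 h and 24 h (log2 -1.60 ± 0.44, adjusted p = 0.0415), as the only one of the 10 genes to pass, while among all probes 12.8% passed in that comparison and 6.47% fell. Il1rn differed there by -1.67 ± 0.64 (adjusted p = 0.0868). Without 24 h replicate 2, which had the highest 24 h signal of both genes, both passed: Il1r1 fell by 2.17 (adjusted p = 0.00173) and Il1rn by 2.57 (adjusted p = 0.00248). Without any 1 of 8 other arrays, the 3 of 0 h, 1.5 h replicates 2 and 3, 12 h replicates 1 and 2 and 24 h replicate 1, no gene passed in this comparison.

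The profiles of Il1rn and Il1r1 were each other's closest among 16525 named protein-coding genes with a value on all arrays (Pearson r = 0.989 over 12 arrays and 0.992 over the 11 arrays without 24 h replicate 2). The arrays share time points and scans, so this is a description of likeness with no test. The calls of Il1rn and Il1r1 at 12 h against 0 h and against 1.5 h were kept under all 23 alternative settings. The log2 change at 12 h against 0 h ran from 3.15 to 4.99 for Il1rn and from 3.55 to 4.19 for Il1r1. A decoy receptor of the same family, Il1r2, which binds interleukin-1 without signalling, rose 14.1-fold at 12 h (3.81 ± 0.35, adjusted p = 0.000148) and 7.32-fold at 24 h (2.87 ± 0.35, adjusted p = 0.00149). The receptor's partner chain, Il1rap, rose between 12 h and 24 h (1.36 ± 0.34, adjusted p = 0.0328) and did not pass against 0 h.

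**Figure D2:**
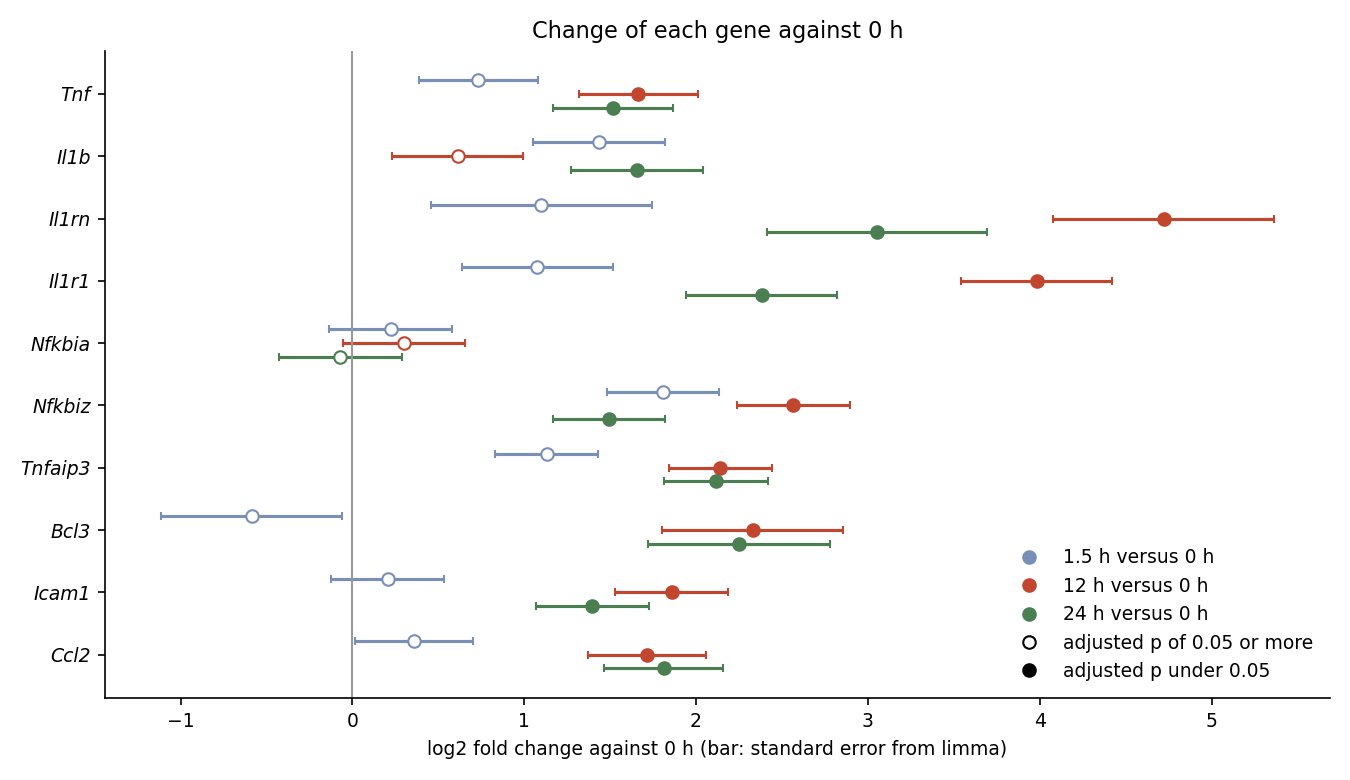
Log2 fold change of each of the 10 genes at 1.5, 12 and 24 h against the same 3 arrays of 0 h, with the standard error from limma as bars. Filled points have an adjusted p under 0.05: none at 1.5 h, 8 at 12 h and 9 at 24 h, with Nfkbia near 0 at each time and the largest changes in Il1rn and Il1r1 at 12 h.

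The inhibitors and regulators of NF-kB split into one gene that did not pass at any time and 3 that rose. Nfkbia encodes I kappa B alpha, the inhibitor whose degradation frees the dimer and whose resynthesis ends the response (NM_010907). Its signal was 652, 687 and 761% of the 75th percentile at 0 h, 892, 828 and 732% at 1.5 h, 1177, 644 and 837% at 12 h, and 898, 376 and 871% at 24 h. The groups overlapped in every comparison, and 24 h replicate 2 was the lowest array of all. The log2 differences against 0 h were 0.22 (interval -0.56 to 1.01), 0.30 (-0.48 to 1.08) and -0.07 (-0.85 to 0.71), with adjusted p of 0.868, 0.55 and 0.928. Changes within these intervals are not excluded. The intervals are not adjusted for the number of probes and are no limit of detection. At 1.5 h a log2 difference of 1.81, that of Nfkbiz, did not pass either. Without 24 h replicate 2 the difference of Nfkbia at 24 h was 0.34 (adjusted p = 0.372).

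Nfkbiz encodes I kappa B zeta, a nuclear member of the I kappa B family that is induced by interleukin-1 and bacterial products and acts on a part of the targets (read from NM_030612). Its signal was 87.2, 94.5 and 109.7% of the 75th percentile at 0 h and 293, 275 and 484% at 1.5 h. It was 862, 523 and 417% at 12 h and 323, 266 and 234% at 24 h. All later arrays were above all 0 h arrays, the arrays of 1.5 h and 12 h overlapped, and those of 24 h were below those of 12 h. Nfkbiz was 3.50-fold higher at 1.5 h (log2 1.81 ± 0.33, adjusted p = 0.148). It rose 5.93-fold at 12 h (2.57 ± 0.33, adjusted p = 0.000766) and 2.81-fold at 24 h (1.49 ± 0.33, adjusted p = 0.0264). Between 12 h and 24 h the log2 difference was -1.07 ± 0.33 (adjusted p = 0.0525). In scan 1 the array of 1.5 h replicate 1 was above the mean of the 3 arrays of 0 h by 1.60.

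Tnfaip3 encodes A20, a ubiquitin-editing enzyme that shuts off signalling from the tumour necrosis factor and interleukin-1 receptors (NM_009397). Its signal was 39.5, 51.0 and 48.2% of the 75th percentile at 0 h, 101, 93.4 and 108% at 1.5 h, 299.6, 157 and 177% at 12 h, and 191, 263 and 157% at 24 h. The groups of 0, 1.5 and 12 h lay one above the other without overlap, and 12 h and 24 h overlapped. Tnfaip3 rose 4.41-fold at 12 h (log2 2.14 ± 0.30, adjusted p = 0.0013) and 4.33-fold at 24 h (2.12 ± 0.30, adjusted p = 0.00379). At 1.5 h it was 2.19-fold higher (1.13 ± 0.30, adjusted p = 0.517), and in scan 1 the difference was 1.14. Its 12 h call was kept under all 23 alternative settings, and its 24 h call under 21 of 23.

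Bcl3 encodes a nuclear I kappa B family member that binds homodimers of the p50 and p52 subunits (NM_033601). It was the only gene of the 10 with a negative difference at 1.5 h. Its signal was 257, 175 and 476% of the 75th percentile at 0 h and 185, 227 and 149.7% at 1.5 h, which overlapped (log2 -0.59 ± 0.53, adjusted p = 0.798). It was 1749, 773 and 2009% at 12 h and 1342, 2432 and 703% at 24 h, above all arrays of 0 h and 1.5 h. Bcl3 rose 5.03-fold at 12 h (2.33 ± 0.53, adjusted p = 0.0142), 7.55-fold between 1.5 h and 12 h (2.92 ± 0.53, adjusted p = 0.00674) and 4.75-fold at 24 h against 0 h (2.25 ± 0.53, adjusted p = 0.0342). With scan as a block the 24 h change was 1.03 (adjusted p = 0.795). Within scan 2 the 12 h arrays were above the 1.5 h arrays by 2.66. The call between 1.5 h and 12 h was kept under all 23 alternatives, and that of 12 h against 0 h under 17 of 23 (adjusted p = 0.222 with scan as a block and 0.0836 with normexp).

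Icam1 encodes the adhesion molecule through which neutrophils and monocytes bind to endothelium and hepatocytes, a classic target of NF-kB (NM_010493). Its signal was 51.4, 42.9 and 60.4% of the 75th percentile at 0 h and 52.1, 56.3 and 69.8% at 1.5 h, with overlap. It was 245, 122 and 214% at 12 h and 161, 96.1 and 157% at 24 h, above all arrays of 0 h and 1.5 h. Icam1 rose 3.63-fold at 12 h (log2 1.86 ± 0.33, adjusted p = 0.00409) and 2.63-fold at 24 h (1.40 ± 0.33, adjusted p = 0.0341). It rose 3.14-fold between 1.5 h and 12 h (1.65 ± 0.33, adjusted p = 0.0108). With scan as a block the 12 h difference from 0 h was 1.49 (adjusted p = 0.138), and within scan 2 the 12 h arrays were above the 1.5 h arrays by 1.46.

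Between 1.5 h and 12 h 5 of the 10 genes rose (Il1rn, Il1r1, Bcl3, Icam1 and Ccl2), against 3.29% of all probes that rose and 8.35% that passed in either direction. In 7 of the 10 every 12 h array was above every 1.5 h array, as in 19.9% of all probes, and the median log2 difference was 1.18, against 0.15 over all probes and 0.10 over protein-coding probes. Tnf (0.93 ± 0.35, adjusted p = 0.149), Tnfaip3 (1.01 ± 0.30, adjusted p = 0.0667) and Nfkbiz (0.76 ± 0.33, adjusted p = 0.227) did not pass, nor did Nfkbia (0.08 ± 0.36, adjusted p = 0.959). Without 1.5 h replicate 1, 12 h replicate 1 or 12 h replicate 3, 3 genes passed, beside 4.03 to 4.32% of all probes. Without 24 h replicate 2, 7 passed, beside 20.2%. Between 12 h and 24 h the median was -0.26, against -0.48 over all probes and -0.14 over protein-coding probes.

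The other genes of the pathway were taken from a list of 81, of which 76 were measured. At 1.5 h 1 passed, at 12 h 24 passed (21 higher, 3 lower) and at 24 h 14 passed (13 higher, 1 lower), each against 0 h, beside the 0.0225, 15.3 and 5.45% of all probes given for these comparisons. Their median log2 fold changes were 0.21, 0.67 and 0.40. Without 24 h replicate 2, 4, 51 and 21 passed, beside 0.568, 49 and 17% of all probes. With scan as a block 0, 10 and 1 passed, beside 0.077, 4.17 and 0.266%. Without 0 h replicate 3 or 1.5 h replicate 3 none passed at 1.5 h, beside 0% of all probes. Without any 1 of the 0 h arrays 9 passed at 24 h, beside 1.33 to 2.49%.

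Among the chemokines Cxcl2, which draws neutrophils, was the gene that passed at 1.5 h. It was not well above background on any 0 h array and was at least 2.34-fold higher at 1.5 h (adjusted p = 0.00896), at least 5.23-fold at 12 h (adjusted p = 3.79e-05) and at least 5.22-fold at 24 h (adjusted p = 8.12e-05). Such a bound sets the mean of the later group against that of the 0 h arrays. Each 0 h value was first raised, where lower, to the lowest signal called above background on its array. The adjusted p comes from the fitted values and not from the bound. Cxcl1, another neutrophil chemokine, rose 42.9-fold at 12 h (5.42 ± 0.51, adjusted p = 0.000171) and 42.6-fold at 24 h (5.41 ± 0.51, adjusted p = 0.00037). Ccl7, a monocyte chemokine that like Ccl2 binds CCR2, was at least 4.86-fold higher at 12 h (adjusted p = 0.00175) and at least 10.3-fold at 24 h (adjusted p = 0.00112). Ccl4 rose 1.96-fold at 12 h (adjusted p = 0.045) and 2.68-fold at 24 h (adjusted p = 0.019). In all, 4 of 16 cytokines and chemokines passed at 12 h and 5 at 24 h, all higher, beside 6.93 and 2.83% of all probes that rose. Between 12 h and 24 h 11 of the 76 pathway genes passed (5 higher, 6 lower), a share near the 12.8% of all probes. That count was 0 with normexp (0.552% of all probes) or without 12 h replicate 1 (1.27%) and 19 without 24 h replicate 2 (15.8%). It was 17 without 24 h replicate 3, where 34.2% of all probes passed. It was 3 to 7, beside 3.95 to 11.8% of all probes, without any 1 of the 3 arrays of 0 h, 1.5 h replicates 2 and 3, 12 h replicates 2 and 3 and 24 h replicate 1. In this comparison the interferon-induced chemokine Cxcl10 rose 3.40-fold (adjusted p = 0.027) and the granulocyte factor Csf3 fell 2.60-fold (adjusted p = 0.0441).

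Of the 20 receptors and adaptors 6 rose at 12 h and none fell. Of all probes 6.93% rose at 12 h and 15.3% passed in either direction, and at 24 h 2.83% rose. The endotoxin co-receptor Cd14 rose 128-fold (7.0 ± 0.72, adjusted p = 0.000254), the adaptor Myd88 3.46-fold (adjusted p = 0.00484) and the receptor Tlr2 2.93-fold (adjusted p = 0.0201), beside Il1r2. At 24 h Il1r2 and Cd14 (20.7-fold, adjusted p = 0.00795) passed. Of 9 kinases 3 rose at 12 h, the NF-kB-inducing kinase Map3k14 (4.67-fold, adjusted p = 0.00099), Tab2 (2.45-fold, adjusted p = 0.00379) and Map3k8 (3.48-fold, adjusted p = 0.00563). The catalytic kinase subunit Ikbkb fell 1.83-fold (adjusted p = 0.043). Map3k14 then fell between 12 h and 24 h, 2.62-fold (adjusted p = 0.0205), while Map3k7 rose 2.62-fold (adjusted p = 0.036).

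No Rel subunit passed in any of the 5 comparisons, and none of the 5 (Rela, Relb, Rel, Nfkb1 and Nfkb2) had an unadjusted p under 0.05 in any of them. The largest log2 fold change among them against 0 h was that of Rel at 12 h, 0.69 ± 0.38 (adjusted p = 0.228). Of the other I kappa B genes Nfkbib rose 4.08-fold at 12 h (2.03 ± 0.28, adjusted p = 0.00111) and fell 2.17-fold between 12 h and 24 h (adjusted p = 0.0321). The brakes moved both ways at 12 h: Socs3, the feedback inhibitor of cytokine receptor signalling, rose 13.9-fold (3.79 ± 0.59, adjusted p = 0.00206) and Tnip2, which binds A20, 3.18-fold (adjusted p = 0.0103). The deubiquitinases Cyld and Otud7b fell 3.35-fold (adjusted p = 0.00151) and 2.32-fold (adjusted p = 0.00821). At 24 h Socs3 was 13.5-fold higher than at 0 h (adjusted p = 0.00598) and Otud7b 2.19-fold lower (adjusted p = 0.0254), and Cyld rose again between 12 h and 24 h (2.47-fold, adjusted p = 0.0152).

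Of 14 other targets 5 rose at 12 h and 3 at 24 h, beside 6.93 and 2.83% of all probes. Lcn2, an antibacterial protein that binds siderophores, rose 439-fold at 12 h (log2 8.78 ± 0.58, adjusted p = 1.98e-05) and 269-fold at 24 h (8.07 ± 0.58, adjusted p = 8.12e-05), and Saa3, a serum amyloid protein, 18.4-fold at 12 h (4.20 ± 0.40, adjusted p = 0.000188) and 13-fold at 24 h (adjusted p = 0.000846). Ier3 rose 15.6-fold at 12 h (3.96 ± 0.50, adjusted p = 0.000732), and Sod2, the mitochondrial superoxide dismutase, 5.03-fold (adjusted p = 0.008). Gadd45b, a stress-induced gene known to be turned on early after hepatectomy, was higher at 1.5 h than at 0 h by 2.51 ± 0.50 (adjusted p = 0.216). It fell 7.65-fold between 1.5 h and 12 h (adjusted p = 0.00477).

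**Figure D3:**
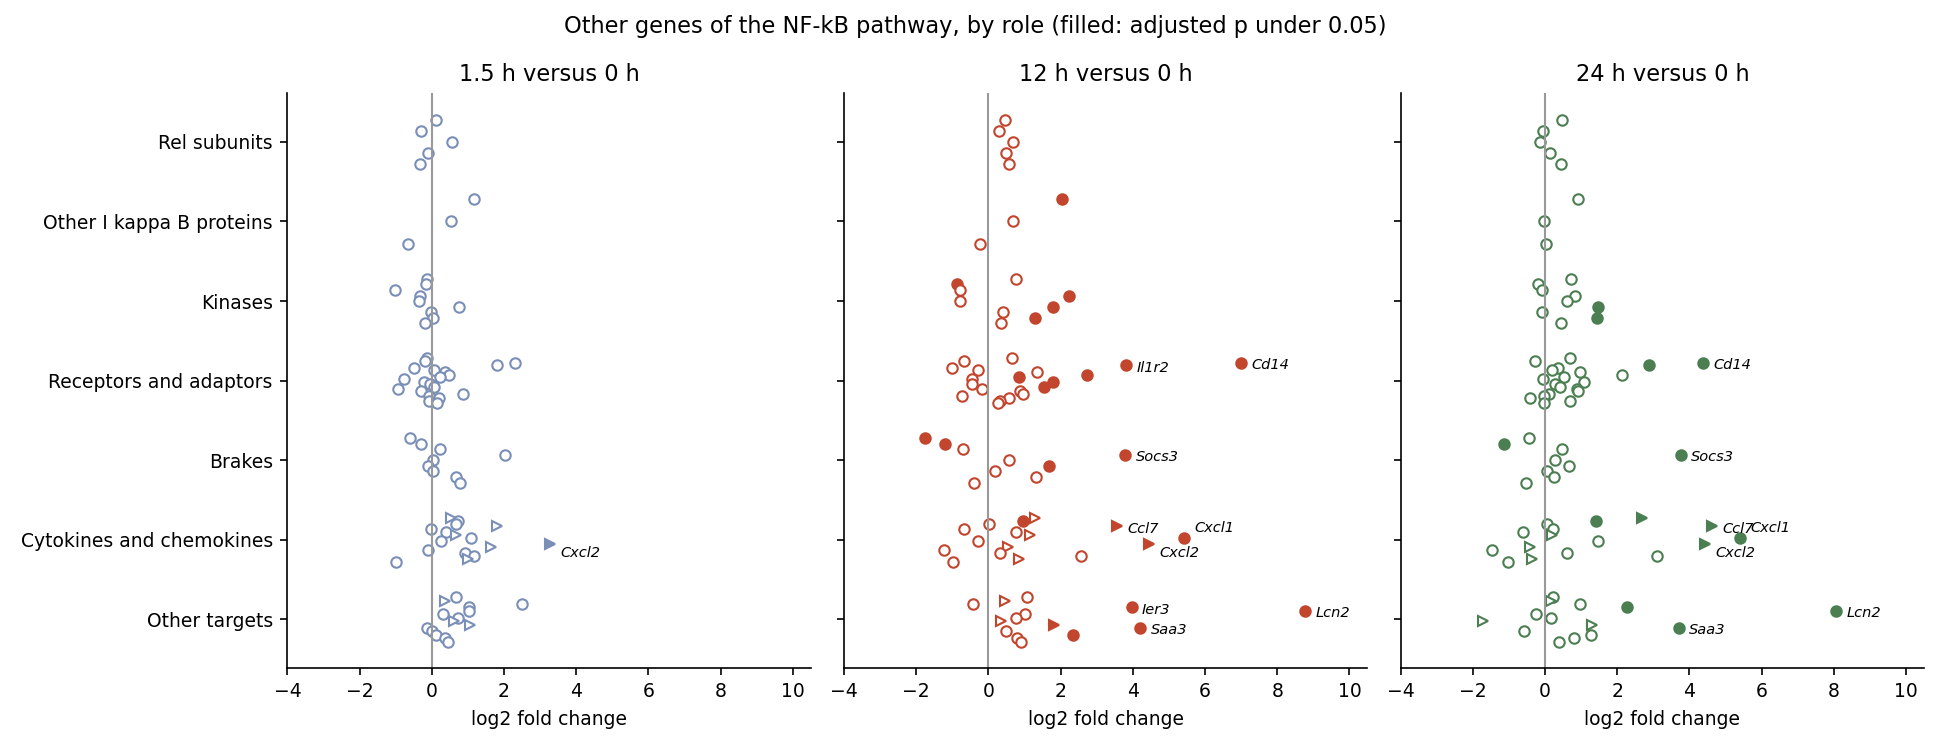
Log2 fold change of the 76 measured genes of the pathway list against 0 h, by role, with 1 panel per time point. Filled symbols have an adjusted p under 0.05, and triangles are genes not well above background on any array of 1 of the groups, whose plotted value is fitted and is no bound. No Rel subunit passed, and the largest changes are those of Lcn2, Cd14 and Cxcl1.

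On every later array the summed signals of the neutrophil, monocyte and bile duct lists were above those of all 0 h arrays. Of the 10 genes, Nfkbia did not pass at any time and Il1b did not pass at 12 h. The summed signal of 8 measured neutrophil markers of 10 listed ran from 125 to 190% of the 75th percentile at 0 h, 761 to 1093% at 1.5 h, 3115 to 3998% at 12 h and 2657 to 4221% at 24 h, and 2, 6 and 5 of the 8 rose at 1.5, 12 and 24 h. Of all probes 0.0225, 6.93 and 2.83% rose at these times, and 0.0225, 15.3 and 5.45% passed in either direction. The neutrophil marker S100a8 rose 7.94-fold at 1.5 h (2.99 ± 0.29, adjusted p = 0.00896), and Ngp was not well above background on any 0 h array. The 5 monocyte markers summed to 94.2 to 126% at 0 h, 130.1 to 141% at 1.5 h, 279.6 to 387% at 12 h and 364 to 644% at 24 h, and 0, 2 and 3 of them rose. The 10 measured Kupffer cell and macrophage markers summed to 3814 to 6499% at 0 h, 4775 to 7863% at 1.5 h, 3531 to 5551% at 12 h and 5361 to 9483% at 24 h. At 12 h their median log2 fold change was -0.84, with 2 of 10 lower and Marco, a scavenger receptor, 5.38-fold higher (adjusted p = 0.00841), and at 24 h the median was 0.15, with 1 higher. The 7 lymphocyte markers had median log2 fold changes of 0.41, -0.14 and -0.66 at 1.5, 12 and 24 h. At 12 h 1 of them was lower. Their sums were 2326 to 3291% at 0 h and 2864 to 4658% at 1.5 h. They were 4681 to 6466.5% at 12 h, without overlap with 0 h, and 770 to 4458% at 24 h. The 3 red blood cell markers had medians of 0.60, 0.74 and -0.48. Their sums were 1006 to 1105.5% at 0 h and 1144 to 1257% at 1.5 h. They were 586 to 1011% at 12 h and 506 to 1001% at 24 h. The 7 endothelial markers summed to 2894 to 3124% at 0 h and 2710 to 3037% at 12 h, with 1 of 7 higher and 1 lower. The 4 bile duct markers summed to 145 to 165% at 0 h and 196 to 265% at 1.5 h. They summed to 177 to 326% at 12 h and 267 to 428% at 24 h, with 1 higher at each of these 2 times. The 6 stellate cell markers summed to 1637 to 2126% at 0 h and 1418 to 2155% at 1.5 h. At 12 h they summed to 1609 to 2389%, with 1 lower, and at 24 h to 2632 to 6264%, with 1 higher. Tnfaip3 had as its closest profile that of the neutrophil gene Retnlg (r = 0.979 over 12 arrays). The part of these cells in the course of the 10 genes was not tested.

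**Figure D4:**
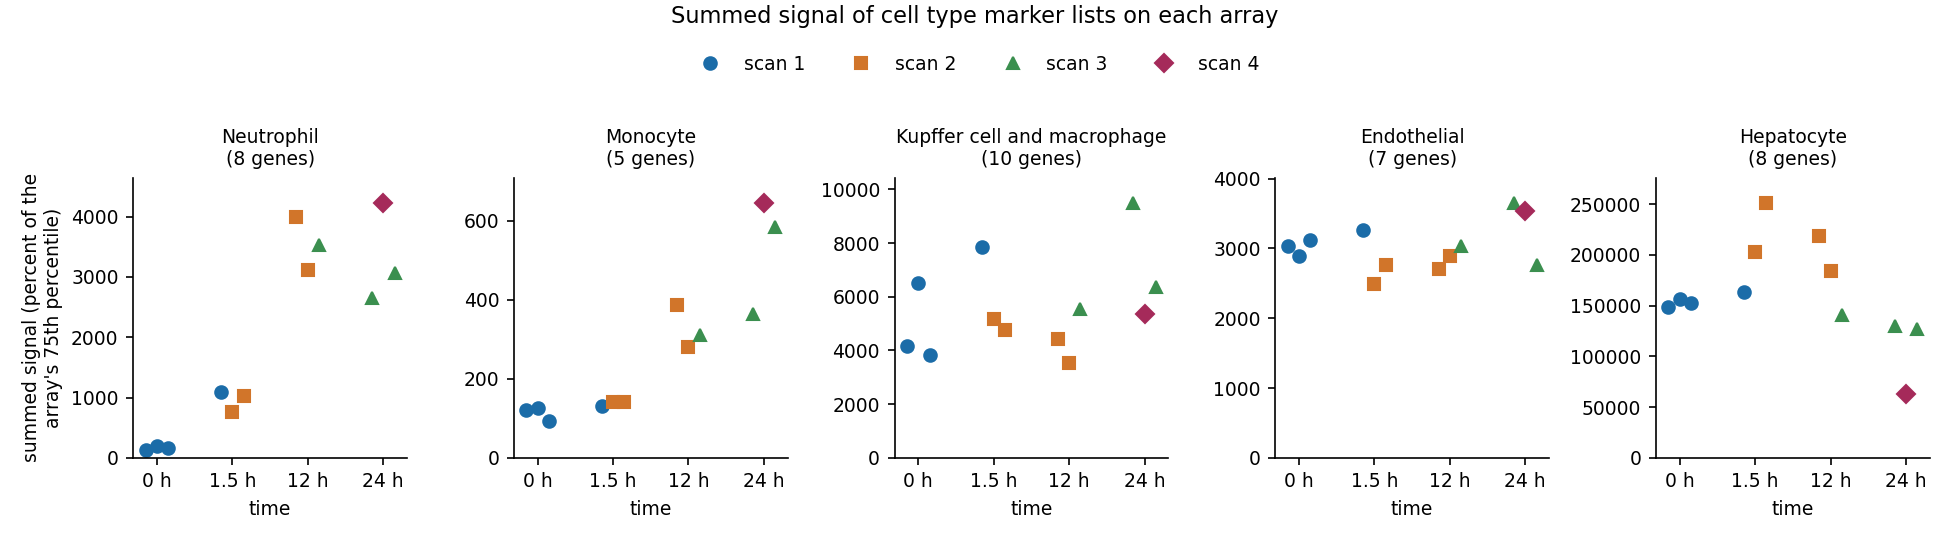
Summed signal of 5 lists of cell type markers on each array, in percent of the array's 75th percentile on a linear axis from 0, by hours after hepatectomy, with symbols for the scan. Neutrophil markers lie between 125 and 190% at 0 h and between 3115 and 3998% at 12 h, and monocyte markers reach their highest value at 24 h. Hepatocyte markers are lowest on the scan 4 array, where 1 of the 8 was not counted as well above background.

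The closest profiles of the other genes were those of Anxa8 for Tnf (r = 0.959), Cntln for Il1b (0.908), Mt1 for Nfkbiz (0.946), 2310022A10Rik for Bcl3 (0.967), Srp9 for Icam1 (0.97), Chst11 for Ccl2 (0.98) and Olfr794 for Nfkbia (0.953), each over 12 arrays and the same 16525 genes. Mt1, a metallothionein, ranged from 3372 to 94733% of the 75th percentile over the arrays. Dim genes were among the closest: Anxa8 ranged from 5.47 to 26.0%, Cntln from 9.10 to 20.5%, Chst11 from 3.75 to 25.5% and Olfr794 from 4.59 to 31.6%. Each r is the highest among 16525 genes and has no test. The value for Nfkbia fell to 0.906 without 24 h replicate 2, and that for Il1b to 0.854.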

How the data were processed

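Total RNA of 12 mouse livers was labelled with Cy3 and hybridised to 1-colour Agilent arrays of 39448 spots, per the labels' protocols. The submitters' processing notes name Agilent Feature Extraction 10.5.1.1, and the deposited files give for each spot a background-subtracted processed intensity on a linear scale. The header names the mm9 build. A second deposited table holds log2 values of the authors for 20271 probes, whose normalization is not given in the sources used here, so it served only as an alternative.

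Control spots and spots marked as outliers were left out, spots of a probe were averaged, and log2 intensities were set relative to the array's own 75th percentile. Probes well above background on at least 3 of 12 arrays were kept (31168 of 37246). A probe bright at only 1 time can pass that filter. All 10 genes passed it. A gene was read from its brightest probe. The other probes of Il1rn, Il1r1 and Nfkbiz had the same direction and call in every comparison. Their values differed somewhat and are mostly not given. For Il1rn at 12 h against 0 h they gave 22.1- and 20.4-fold. limma 3.58.1 in R 4.3.3 (lmFit, eBayes) gave each time point its mean, with the spread shared by the 12 arrays. Tests were two-sided, with Benjamini-Hochberg adjustment over the kept probes and a threshold of 0.05. The code was tested on simulated data. Alternatives changed the background correction, normalization, probe filter, block and model, or left out 1 array. The number of arrays limits the precision, and intervals are 95% intervals from the model. The genes named are the 10 genes, up to 4 called genes per role of the pathway list with the smallest adjusted p, and the closest profile of each of the 10. The genes, lists and comparisons were chosen with earlier results of these data known. Replicate numbers were not taken as a pairing: deviations of same-numbered arrays from their group means correlated between -0.419 and 0.411, above 0.1 in 2 of 18 pairs. With means of 3 arrays, this check cannot exclude a pairing. The labels call the replicates mice, and p-values measure the spread between these arrays. Names came from RefSeq identifiers. Probe sequences were not used here.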

Additional observations from a re-analysis of the deposited data

How the results depend on the processing

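Over 23 alternative settings the calls of Il1rn, Il1r1, Nfkbiz and Tnfaip3 at 12 h against 0 h, and of Il1rn, Il1r1 and Bcl3 at 12 h against 1.5 h, were kept in every one. Those at 24 h against 0 h were kept in 12 to 21. The cause of these differences was not tested, and Tnf, the dimmest gene, could be read in 21 settings because the authors' table and the filter for all 12 arrays lack it.

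Percentages in brackets here are the shares of all probes that passed in the same setting. Of the 10 genes, 6 passed at 1.5 h with array weights (38%), against 0 in the main setting (0.0225%). At 12 h against 0 h 4 passed with normexp (2.15%) and 5 with scan as a block (4.17%), against 8 in the main setting (15.3%). At 12 h against 1.5 h 3 passed with normexp (1.68%), against 5 (8.35%). Of the 24 h calls against 0 h 1 passed with normexp (0.597%), 0 with scan as a block (0.266%) and 0 with only the 2 groups compared (0.382%), against 9 (5.45%). At 24 h against 12 h 0 passed with normexp (0.552%), 3 with quantile normalization (17.2%) and 4 with the authors' values (28.5%), against 1 in the main setting (12.8%). There 0 passed with no filter on dim probes (6.94%), 2 with the filter for all 12 arrays (22.7%) and 0 with the replicate block (4.1%). With scan as a block 3 passed (8.86%), with only the 2 groups compared 0 (0%), with robust moderation 2 (14.7%) and with array weights 3 (33.6%). Leaving out 1 array at a time gave 0 to 1 at 1.5 h, 7 to 8 at 12 h and 1 to 9 at 24 h against 0 h, 3 to 7 at 12 h against 1.5 h and 0 to 2 at 24 h against 12 h. In the same order the shares of all probes ran from 0 to 0.568%, 7.24 to 49%, 1.33 to 17%, 4.03 to 20.2% and 1.27 to 34.2%.

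Percentages in brackets are again shares of all probes. Of the 76 pathway genes, at 1.5 h 30 passed with array weights (38%), against 1 in the main setting (0.0225%). There 0 passed with normexp, the authors' values, the filter for all 12 arrays, the replicate block, scan as a block or only the 2 groups (0 to 0.0987%). At 12 h against 0 h 8 passed with normexp (2.15%) and 10 with scan as a block (4.17%). With only the 2 groups 49 passed (49.7%) and with array weights 54 (58.2%), against 24 in the main setting (15.3%). At 12 h against 1.5 h 8 passed with normexp (1.68%) and 26 with the authors' values (18.3%). With scan as a block 26 passed (15.1%) and with array weights 35 (21%), against 16 in the main setting (8.35%). Against 0 h at 24 h 5 passed with normexp (0.597%) and 1 with scan as a block (0.266%). With only the 2 groups 5 passed (0.382%) and with array weights 31 (28.1%), against 14 in the main setting (5.45%). Between 12 h and 24 h 0 passed with normexp (0.552%), 19 with quantile normalization (17.2%) and 22 with the authors' values (28.5%). There 6 passed with no filter (6.94%), 2 with the replicate block (4.1%), 0 with only the 2 groups (0%) and 28 with array weights (33.6%). The main setting gave 11 (12.8%). Leaving out 1 array at a time gave 0 to 4, 17 to 51 and 9 to 21 at 1.5, 12 and 24 h against 0 h, 10 to 32 at 12 h against 1.5 h and 0 to 19 at 24 h against 12 h. The shares of all probes with an array left out are those given for the 10 genes. The replicate numbers were not taken as a pairing. With the replicate block 0, 8 and 7 of the 10 genes passed at 1.5, 12 and 24 h against 0 h and 4 at 12 h against 1.5 h. Of all probes 0, 11.6, 3.72 and 6.18% passed in these comparisons.

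Signs changed for small differences, and for Tnf with normexp. Its log2 change was -0.084 at 1.5 h (0.73 in the main setting) and -0.03 at 24 h against 0 h (1.52). The following are log2 differences of 24 h against 12 h, with the range over single arrays left out. Tnf was 0.391 with quantile normalization, 0.03 with scan as a block, 0.102 with array weights and -0.506 to 0.208 with an array left out (-0.15 in the main setting). Bcl3 was 0.302 with normexp and -0.523 to 0.372 with an array left out (-0.08). Ccl2 was -0.05 with quantile normalization, -0.053 with the authors' values, -0.254 with array weights and -0.101 to 0.397 with an array left out (0.10). Tnfaip3 was 0.282 with normexp and -0.228 to 0.255 with an array left out (-0.03). Nfkbia was 0.08 with scan as a block and -0.586 to 0.042 with an array left out (-0.37). Against 0 h Nfkbia at 24 h was 0.134 with normexp, 0.596 with scan as a block, 0.332 with array weights and -0.286 to 0.341 with an array left out (-0.07). Its 12 h level against 1.5 h was -0.263 with normexp and -0.15 to 0.285 with an array left out (0.08).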
